A study of Drosophila melanogaster with 5 samples.

Results

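The 288 ORFs described here are annotated coding ORFs of *D. melanogaster* S2 cells that the standard Ribo-Seq lists held only when the cells had been treated with cycloheximide. A deeper list made without the drug held 272 of them. They were chosen by their presence in the lists of translated ORFs. The stop codon of a CCDS ORF, an ORF that overlaps a known coding region, had to be in both lists made in the presence of cycloheximide and in neither standard list made in its absence. Of the 7156 different CCDS stop codons in the 4 standard lists, 288 met this rule, which is 4.02%. The opposite pattern, both lists in the absence and neither in the presence of cycloheximide, was found for 20 stop codons (0.279%). For each stop codon the longest ORF is described, and lengths are of that ORF unless stated, since a list can hold a shorter one with the same stop codon.

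S2 cells are a hemocyte-like line derived from embryos. All samples came from S2 cells grown in Schneider's medium with FBS. The 4 standard samples were footprinted with A-RNaseI in Buffer 1, of high ionic strength, or with E-RNaseI in Buffer 2, of low ionic strength, each with and without 3 min of cycloheximide before the cells were pelleted (100 µg/ml in the methods, while the labels give mg/ml). Cells called untreated were also washed and lysed in buffers that held cycloheximide, so the drug was absent only up to the wash. One more sample, E-RNaseI in Buffer 2 in the absence of cycloheximide, gave a deeper list that the rule did not use. The sources used here do not say whether it shares its library with the standard list of that condition. The methods describe subsampling of the alignments to a common number of reads, without saying which lists were made from them. Each condition had 1 standard sample, so differences are not set against a spread between replicates of a condition. No test was run and p-values are not given.

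Cycloheximide binds the ribosome and stops elongation, so that ribosomes stay where they are on the mRNA while initiation can go on for a short time. In Ribo-Seq, the stretch of mRNA inside each stopped ribosome survives RNase digestion, and the position of the ribosomal P-site, which holds the growing peptide, is read from it. RiboTaper calls an ORF as translated when enough P-sites follow the triplet rhythm of its codons. A stop codon that is not in a list was therefore not called there, which does not say that no ribosome was on the mRNA. The lowest value in any list was 6 P-sites, and values below it were not seen.

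The lists differed in depth. On the 3849 stop codons in all 5 lists, the E-RNaseI sample had 3.09 times as many P-sites in the presence as in the absence of cycloheximide, and A-RNaseI 1.43 times. The deep list had 14.5 times the P-sites of the standard list of its own condition. Depth thus moved with the rule that chose the ORFs, and its part in the choice was not tested. Of 10 hemocyte markers, 8 were called in at least 1 list, and NimC1 and He in none. The deep list held 8. With A-RNaseI the treated list held 4 and the untreated 5, and with E-RNaseI the standard lists held 5 and 4. No crystal cell, muscle or fat body marker (of 3, 4 and 4) was called, and 1 of 4 neuronal and 2 of 4 germ line markers were.

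The chosen ORFs held few P-sites. In the presence of cycloheximide their median was 16 P-sites with A-RNaseI (range 6 to 1191) and 30 with E-RNaseI (6 to 2023). The ORFs found in all 4 standard lists had medians of 100 and 204 in the same samples, and those in both treated and 1 untreated list had 34 and 71. Stop codons in the treated E-RNaseI list alone had a median of 17 there. Per length, the chosen ORFs had a median of 1.62 P-sites per 100 nt with A-RNaseI and 2.61 with E-RNaseI, against 2.78 and 5.30 with 1 untreated list and 6.33 and 12.3 in all 4 lists. The smaller of an ORF's treated values was under 20 for 179 of the 288 (62.2%) and under 10 for 61. Just inside the rule lay 18 ORFs with 6 P-sites in a treated list. Just outside it lay 965 stop codons that were in both treated lists and in 1 untreated list. The 836 of these that the standard E-RNaseI list held had a median of 22.5 P-sites there, and the 129 that the untreated A-RNaseI list held had a median of 15.

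The treated lists gave the same start codon with both RNases for 120 of the 288 ORFs. Ratios between these lists are thus partly of unlike stretches, and of values that the rule used. E-RNaseI had a median of 1.88 times the P-sites of A-RNaseI on the chosen ORFs, and 2.07 times on those of all 4 lists. On the chosen ORFs this ratio ran from 0.239 to 5.14. In 29 of the 288 ORFs A-RNaseI had the higher number. The ORF with the lowest ratio lay in the locus of Su(var)3-9 and eIF2gamma, a histone methyltransferase and a translation initiation factor subunit whose transcripts share their first exons. It held 88 P-sites over 1905 nt with A-RNaseI and 21 over 1509 nt with E-RNaseI. The listed start codons differed, so these numbers are not of the same stretch.

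**Figure D1:**
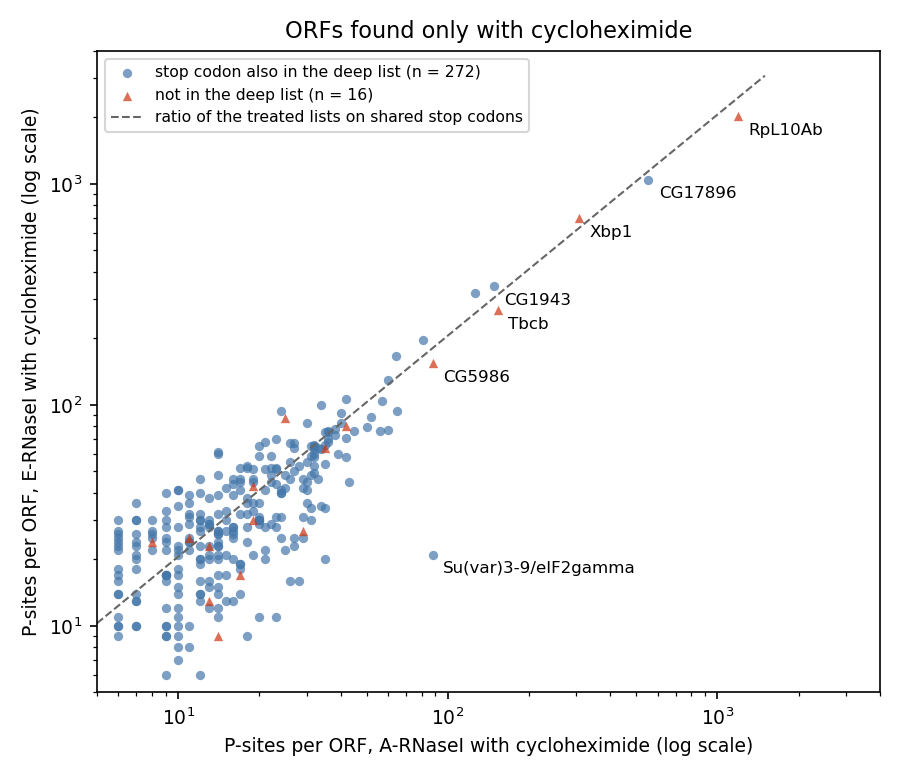
P-sites of each of the 288 ORFs with A-RNaseI (x axis) and with E-RNaseI (y axis), both in the presence of cycloheximide and on log scales. Circles are the 272 stop codons that the deep untreated list also held, triangles the 16 it did not, and the dashed line is the ratio of 2.06 between the lists on shared stop codons. Most ORFs lie below 50 P-sites on the x axis, and RpL10Ab, CG17896 and Xbp1 lie far above the rest.

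The deep list, made in the absence of cycloheximide, held most of these stop codons. It contained 272 of the 288, or 94.4% (Wilson 95% interval 91.2% to 96.6%, which like all intervals here covers counting error only). The share was 99.7% for the 965 stop codons in both treated and 1 untreated list, 99.9% for those in all 4 lists, and 98.2% over all 7156. For stop codons in a single treated list and no other standard list it was 92.9% of 714 with E-RNaseI and 58.9% of 73 with A-RNaseI. Of the 20 stop codons with the opposite pattern it held 19.

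In the deep list the 272 ORFs had a median of 112.5 P-sites (range 11 to 2282), compared with 955 for the ORFs of all 4 lists. Divided by the depth ratio of 14.5, the median of the 272 was 7.78 P-sites, close to the lowest value of 6 in the lists. It was under 6 for 85 of them (31.2%, with an interval of 26.0% to 37.0%). Over all stop codons of the standard lists that the deep list held, 9.83% were under 6. For stop codons in both treated and 1 untreated list the median was 22.0 and the share under 6 was 2.91%. At the other end, 16 of the 272 were at 20 or more on this scale. The chosen ORFs had to be missing from the standard untreated E-RNaseI list, and stop codons of the other classes did not all have to be. The deep list is of that same condition and may share its library. The rule thus favours low values here and fixes part of the difference between the classes.

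**Figure D2:**
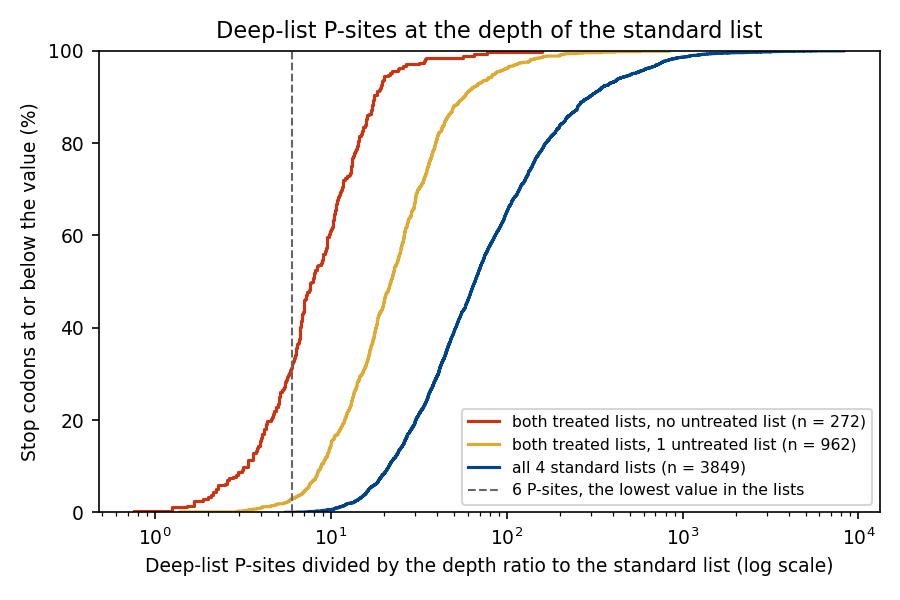
Deep-list P-sites divided by the depth ratio between it and the standard untreated E-RNaseI list (x axis, log scale), as the cumulative percent of stop codons (y axis). The curve of the chosen ORFs (n = 272) crosses 6 P-sites, the dashed line, at 31.2%, that of stop codons in 1 untreated list at 2.91%, and that of all 4 lists close to 0. The rule favours low values for the chosen ORFs and fixes part of this order.

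The deep P-sites can also be read against the treated ones where both lists gave the same start codon. For the 153 chosen ORFs with the same start in the deep list and in the treated E-RNaseI list, the deep list had a median of 3.67 times the treated P-sites (middle 50% of ORFs 3.00 to 4.77). Over 3034 stop codons in all 5 lists the median was 4.70. Against A-RNaseI with cycloheximide the medians were 6.97 for 124 chosen ORFs and 9.19 over 2166. Both sets were called in the treated lists, but the chosen ORFs also had to be missing from the standard untreated lists. The deep list is of the same condition as the standard untreated E-RNaseI list and may share its library. The rule thus favours low untreated values and fixes part of this difference, which is given as a description.

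Lists that shared a stop codon could differ in the start codon. The treated lists gave the same start for 120 of the 288 ORFs (41.7%), compared with 46.2% for stop codons with 1 untreated list and 59.4% for the ORFs of all 4 lists. In the deep list, the start was that of the longest treated ORF for 172 of 272 (63.2%), downstream of it for 78 and upstream for 22. For the ORFs of all 4 lists 80.0% had the same start and 6.60% a downstream one. The chosen ORFs lay between the other classes in length. Their median was 1147.5 nt, against 1329 nt for stop codons with 1 untreated list and 1647 nt for those in all 4 lists. It was 921 nt for stop codons in the treated E-RNaseI list alone, 636 nt in the treated A-RNaseI list alone and 466.5 nt for the 20 with the opposite pattern. These medians are of the longest ORF over all standard lists that held the stop codon. Classes held by more lists thus had more ORFs to take the longest from. Of the 288, 20 (6.94%) were at least 3000 nt long, compared with 10.9% with 1 untreated list and 21.6% in all 4 lists, and 11 (3.82%) were under 300 nt, compared with 3.42% and 1.64%. A single exon held 17.0% of them, compared with 13.7% and 8.88%. By chromosome, between 3.76% (3R) and 4.77% (X) of the called stop codons were chosen, and 0 of 58 on chromosome 4.

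**Figure D3:**
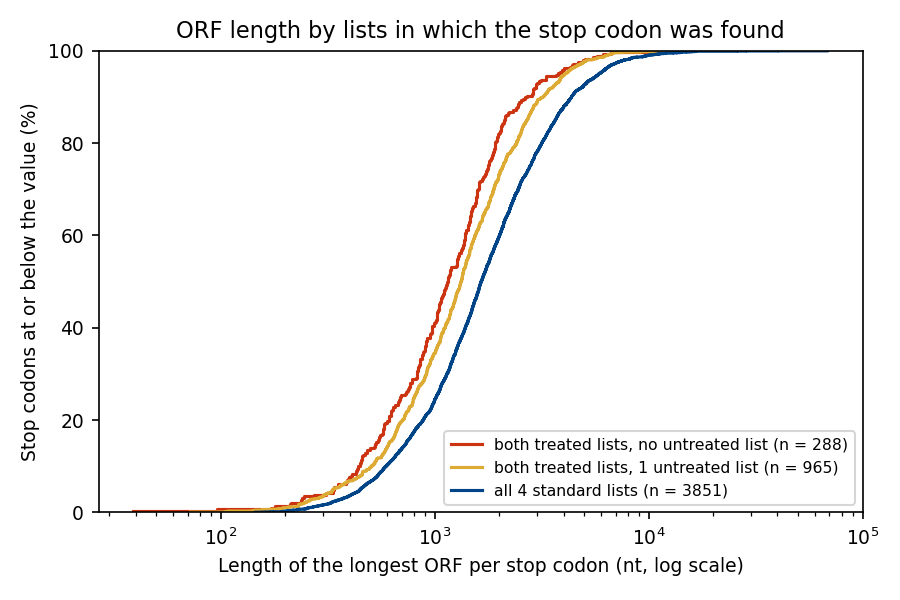
Length of the longest ORF per stop codon (x axis, nt, log scale) as the cumulative percent of stop codons (y axis), for the 288 chosen ORFs, the 965 stop codons in both treated and 1 untreated list, and the 3851 in all 4 standard lists. The medians are 1147.5, 1329 and 1647 nt, in this order from left to right.

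A group of 16 stop codons was in neither the standard nor the deep list in the absence of cycloheximide. For 12 of them no untreated list held any ORF on the same bases of that strand. Xbp1, the transcription factor of the unfolded protein response whose mRNA is spliced in the cytoplasm by Ire1, had the most P-sites among these 12. Its ORF (transcript FBtr0310044, 2R:21143878-21144863, plus strand, 921 nt in 2 exons) held 697 P-sites with E-RNaseI and cycloheximide, and 307 with A-RNaseI, where the listed ORF was 735 nt long. At the depth of the untreated lists these values come to 226 P-sites for the E-RNaseI value and 215 for the A-RNaseI value. In the absence of cycloheximide the gene gave a uORF of 108 nt instead, with 8 P-sites in the standard E-RNaseI list and 139 in the deep list. Neither treated list held this uORF. With A-RNaseI in the absence of cycloheximide neither ORF was called.

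The other ORFs with many P-sites in this group followed the same pattern without a uORF. Tbcb, a cofactor that folds tubulin, had 153 P-sites over 732 nt with A-RNaseI (2R:19485806-19486714), and 269 over the last 528 nt with E-RNaseI. CG5986 had 88 and 155 over the same 696 nt in both lists (3R:24048333-24049087). CG11586 had 42 and 80 (3L:4261726-4262365, 582 nt), and CG14483 had 35 and 64 (2R:17585793-17586001, 210 nt). None of these 4 genes had an ORF called within its span alone in any list in the absence of cycloheximide. Scaled to the depth of the standard untreated lists, their values were between 20.7 and 107 P-sites, above the lowest value of 6. The remaining ORFs with no untreated call on their bases had 29 or fewer P-sites with A-RNaseI, and were those of CG12728, temp, CG2162, CG9240, her, of the overlapping Boh2 and Ca-beta, and of CG42496 and Ppcdc. The stop codons of RpL10Ab, Pcmt, PPP4R2r and Traf-like made up the 16, and lay on bases that an untreated ORF with another end also held.

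**Figure D4:**
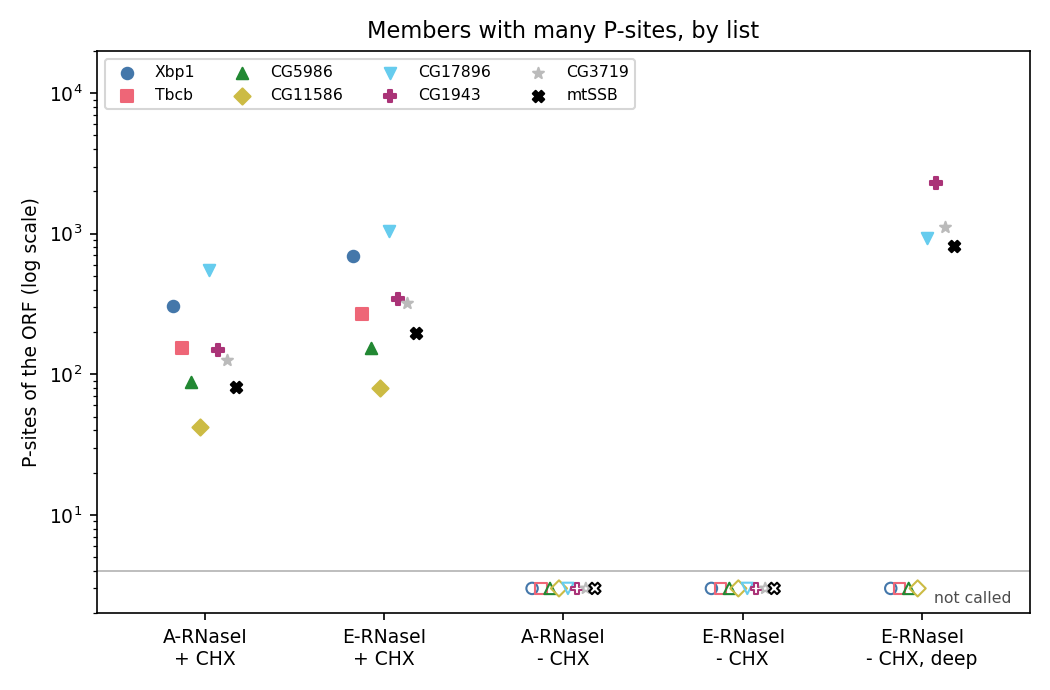
P-sites (y axis, log scale) of 8 ORFs with many P-sites in each of the 5 lists (x axis; CHX, cycloheximide). Open symbols below the line mark lists in which the stop codon was not called: both standard untreated lists for every gene, and the deep list for Xbp1, Tbcb, CG5986 and CG11586.

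Other ORFs with many P-sites were in the deep list. CG1943 (3R:7076920-7077274, 354 nt) had 148 P-sites with A-RNaseI, 345 with E-RNaseI and cycloheximide, and 2282 in the deep list with the same start. CG3719 (480 nt, X) had 126, 320 and 1119. mtSSB, which binds single-stranded mitochondrial DNA (438 nt, 3R), had 81, 196 and 820. At the depth of the standard list their deep values come to 158, 77.4 and 56.7 P-sites, well above 6, and yet neither standard list in the absence of cycloheximide held them. Of the 16 ORFs at 20 or more on this scale, 15 had no untreated standard ORF on their bases. DCP1, an activator of mRNA decapping, had 36 P-sites with A-RNaseI, 76 with E-RNaseI and 353 in the deep list.

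For a few ORFs the deep list held only the end of the ORF. CG17896, a methylmalonate-semialdehyde dehydrogenase, had 554 P-sites with A-RNaseI and 1044 with E-RNaseI over 1560 nt (X:491099-493416). The deep list held the last 372 nt, with 939 P-sites. CG1103 had 57 and 104 P-sites over 597 nt, and the deep list held 306 nt of it with 18 P-sites. In 5 of the 272 ORFs the deep number was below that of the treated E-RNaseI list. Dnz1, of the DHHC palmitoyltransferase family, had 65 and 94 P-sites and 206 in the deep list, and CG8188 had 64, 166 and 386.

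By position, 246 of the 288 ORFs lay in exactly 1 protein-coding gene, and 42 in the spans of several genes, which are named together. The 246 lay in 232 genes, or 4.05% of the 5726 genes with a CCDS stop codon in the 4 standard lists. For 213 of the 232 genes no ORF of any type that lay in that gene alone was in a standard untreated list, and 19 genes had another such ORF there. Untreated ORFs in the spans of several genes were not counted for this. Genes known only by a CG number made up 98 of the 232, and 6.16% of the 1591 such genes called.

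Among the gene lists given here, the share was highest for the mitochondrial tRNA synthetases, which charge tRNAs for translation inside mitochondria. Of the 14 called, 4 were chosen (28.6%, against 4.05% of all genes). TyrRS-m had 20 P-sites with A-RNaseI, 59 with E-RNaseI and cycloheximide, and 208 in the deep list (1392 nt). CysRS-m had 11, 29 and 116, ValRS-m 13, 28 and 206, and GluRS-m 14, 14 and 96. The other 10 synthetases included 4 that were in all 4 lists, led by AspRS-m with 121 and 192 P-sites in the treated lists and 72 and 46 in the untreated ones. Between these lay TrpRS-m, with 57 and 108 in the treated lists and 45 in the untreated E-RNaseI list alone, and ArgRS-m with 12 and 26 and then 7. The ranges of chosen and other synthetases overlapped in both treated lists and in the deep list.

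**Figure D5:**
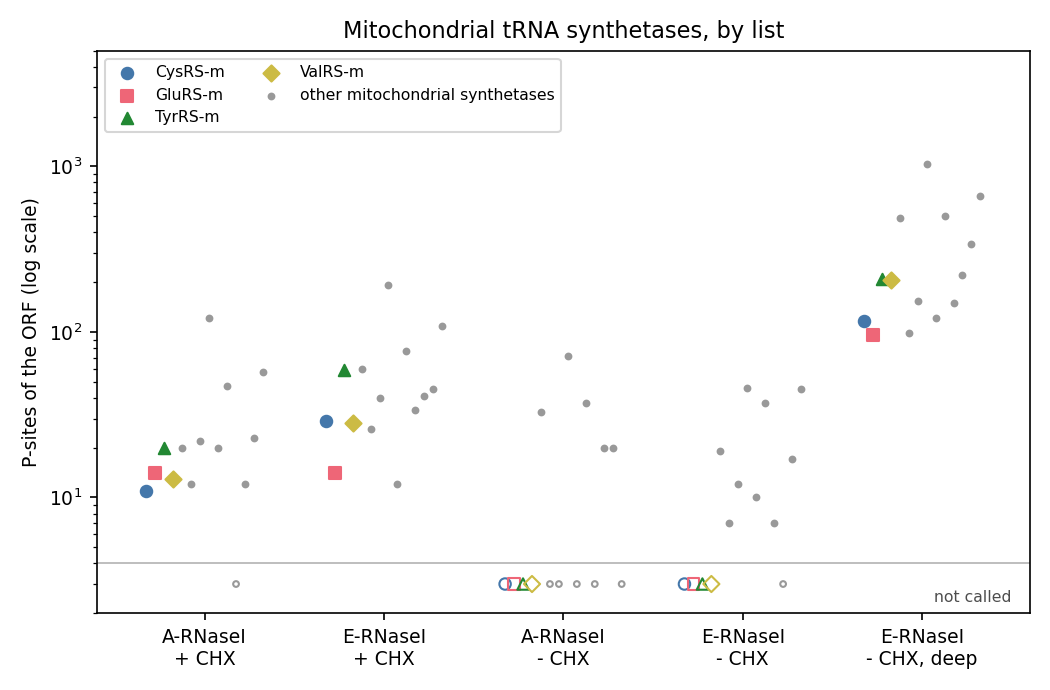
P-sites (y axis, log scale) of the 14 mitochondrial tRNA synthetases in each list (x axis; CHX, cycloheximide). Coloured symbols are the 4 chosen ORFs, grey points the other 10, and open symbols lists in which the gene was not called. The chosen ORFs lie between 11 and 59 P-sites with cycloheximide and between 96 and 208 in the deep list, within the range of the other synthetases in each list except at the low ends for A-RNaseI and the deep list.

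Further mitochondrial genes were among the chosen ORFs, grouped here after their values had been seen. GatB, a subunit of the amidotransferase that completes glutaminyl-tRNA, had 27 and 25 P-sites with A-RNaseI and E-RNaseI, and 105 in the deep list. mRpL21 had 39, 60 and 320, and was 1 of 71 called mitochondrial ribosomal proteins (1.41%). With mtSSB and the synthetases these 7 genes had a median of 20 P-sites with A-RNaseI and 29 with E-RNaseI. All 7 were in the deep list, which held 94.4% of all chosen stop codons. Of 80 called cytosolic ribosomal protein genes, only RpL10Ab had a chosen ORF (1.25%).

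Several lists of nuclear processes had chosen genes, at shares near or below the 4.05% of all called genes. Of 76 chromatin modifiers called, 3 were chosen (3.95%), and 2 more chosen ORFs lay in spans that Kdm4B and Su(var)3-9 share with other genes. They were ash1, a trithorax group histone methyltransferase, with 43, 45 and 255 P-sites in the order A-RNaseI, E-RNaseI and deep list, Pc, the Polycomb protein that reads methylated histone H3, with 12, 30 and 153, and escl, a Polycomb repressive complex subunit, with 32, 60 and 291. Of 44 DNA repair genes, 2 were chosen (4.55%), beside an ORF in the overlapping Irbp18 and CG33947. agt, which removes alkyl groups from guanine, had 29, 42 and 165 P-sites, and Ku80, which binds broken DNA ends, had 11, 36 and 255. Of 73 cell cycle genes, E2f2, a repressor of cell cycle transcription (24, 94 and 266), and the condensin II subunit Cap-H2 (19, 33 and 168) were chosen (2.74%), and an ORF lay in the overlapping Klp67A and mRRF1. Untreated ORFs with another end covered 62.7% of the Cap-H2 ORF. The TFIID subunit Taf8 (6, 17 and 101) was 1 of 63 subunits of RNA polymerases, Mediator and TFIID called (1.59%). It was the only 1 chosen in a single-gene span, as Polr3K overlaps Tcs1. Cep97, a centriole protein (21, 20 and 133), was the only 1 of 32 centrosome and cilium genes (3.125%).

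Signalling genes were also among the chosen. N, the Notch receptor, was 1 of 40 receptors called (2.5%). It had 6 P-sites with A-RNaseI, the lowest value in the lists, over 4122 nt. Over 5508 nt it had 25 with E-RNaseI and 150 in the deep list. neur, the ubiquitin ligase that activates Notch ligands, had 24, 40 and 162. Of 31 immunity genes called, 2 were chosen (6.45%). These were Socs36E, an inhibitor of JAK/STAT signalling (17, 41 and 174), and PGRP-LA, of the peptidoglycan recognition protein family (18, 9 and 62). RabX6 (16, 39 and 157) and RabX1 (6, 27 and 33) made up 2 of 52 Rab and vacuolar sorting genes called (3.85%). No cytochrome P450 gene (of 13 called) and no autophagy gene (of 21) was chosen, against 4.05% of all called genes. At that share, lists this small can hold no chosen gene. Atg1 and Atg101 did each overlap a chosen ORF that also lay in another gene.

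Some chosen genes act together, as was noticed after their values had been seen. Met and gce are the paralogous juvenile hormone receptors, transcription factors of the bHLH-PAS family. Met had 12 P-sites with A-RNaseI, 30 with E-RNaseI and 63 in the deep list, and gce had 11, 31 and 108. sima, the hypoxia-inducible factor of the same family, had 25, 48 and 230 at an alternative end, where untreated ORFs covered 58.2% of the bases. Atox1 carries copper to the copper pump ATP7. Atox1 had 34, 63 and 231 P-sites over 213 nt, and ATP7 had 31 over 3459 nt, 59 over 3702 nt and 250 over 3303 nt. Per length, over the ORF that the A-RNaseI list gave, Atox1 had 16 P-sites per 100 nt with A-RNaseI and ATP7 had 0.896.

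Enzymes of heparan sulfate synthesis were another such set, each with the lowest value of 6 P-sites in a treated list. The called genes of this pathway were not counted, so no share can be set beside that of all genes. The polymerase subunit sotv had 6 and 9 P-sites in the presence of cycloheximide and 73 in the deep list, the sulfotransferase sfl had 6, 16 and 49, and the epimerase Hsepi had 12, 6 and 58. With other glycan-synthesis genes (Pgant35A, Mgat1, PIG-X, Tango14 and NANS) their median was 12.5 with A-RNaseI and 15 with E-RNaseI, and all 8 were in the deep list, which held 94.4% of all chosen stop codons. PPP1R15, the phosphatase subunit that reverses eIF2alpha phosphorylation, had 22 and 48 P-sites on its main ORF in the presence of cycloheximide and 87 in the deep list. Its uORF of 105 nt was in every list, with 33 and 94 P-sites in the treated lists, 38 and 37 in the untreated ones, and 485 in the deep list. PPP1R15, Xbp1 and Gprk2 were the chosen genes whose uORF was in a standard list in the absence of cycloheximide. Genes with a uORF were not counted among all called genes, so no share can be set beside these. A link between uORFs and the choice was not tested.

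Some chosen stop codons are alternative ends of genes that were called in the absence of cycloheximide. Of the 288 ORFs, 27 (9.38%, 6.52% to 13.3%) shared at least 1 base on the same strand with an ORF of a standard untreated list, and 10 were covered by at least 90%. Their P-sites then count for more than 1 ORF. The highest value of all was of this kind. RpL10Ab encodes a protein of the large ribosomal subunit. Its short ORF of 171 nt (FBtr0345073, 3L:11822887-11823367) had 1191 P-sites with A-RNaseI and 2023 with E-RNaseI, and untreated ORFs covered 93.0% of it. Of the genes, 11 had more than 1 chosen end, and the 288 ORFs form 271 stretches when those that share a base on the same strand are joined. Fhos, a formin that assembles actin, had 4 chosen ends, with 17 to 19 P-sites with A-RNaseI, 28 to 36 with E-RNaseI and 169 to 191 in the deep list. mbl, the splicing regulator muscleblind, had 3 ends with 9 to 11, 23 to 28 and 55 to 89, each covered by untreated ORFs to at least 87.9%. For Fhos no untreated standard ORF lay on these bases.

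The lengths of single-gene ORFs ran from 39 to 12423 nt. The longest was that of Apoltp, the apolipoprotein of lipid transfer particles in the hemolymph, with 13 P-sites over 12423 nt with E-RNaseI. Over 11427 nt the treated A-RNaseI list had 7 and the deep list 63. It was followed by ash1 (6678 nt), Camta, a calmodulin-binding transcription activator (6132 and 5745 nt, with 10 or 11 P-sites in each treated list), and N. The shortest was an ORF of 39 nt in CG2162, with 17 P-sites with each RNase. Its stop codon was not in the deep list, though other ORFs of the gene were in that list and in a standard untreated list. After the short RpL10Ab ORF came CG14483 (210 nt), Atox1 (213 nt) and Traf-like, whose ORF of 240 nt had 14 and 9 P-sites and lay wholly within untreated ORFs with another end.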

How the data were processed

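Ribosome footprints of 5 S2 samples were used, 1 per condition plus the deep one. The authors trimmed reads (cutadapt 2.10), removed rRNA and tRNA reads (Bowtie2 2.4.1) and mapped the rest (STAR 2.7.5c, SAMtools 1.10) to Release 6. They called ORFs per sample with RiboTaper, with start codons chosen by the P-sites near them. ORFs were then dropped where multimapping reads alone gave more than a set share of the coverage, a limit below the larger part. Read lengths used differed between samples. The deposited lists give each ORF a whole number, read as its count of P-sites, not normalized, which no text names.

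Exon lines were joined by identifier and stop codons matched by chromosome, strand and outer edge, in pandas 2.3.3 and numpy 2.4.6 (Python 3.11.15), with intervals from scipy 1.17.1. This was tested on simulated data. Coordinates count from 1, and 1 outer edge can be off by 1 nt. Lengths do not include the stop codon. An ORF was given to the gene whose span holds it in a RefSeq table of this assembly (13951 protein-coding genes with coordinates), which has no strand.

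P-sites were scaled between lists by the ratio of their sums on stop codons in all 5 lists. Shares carry Wilson 95% intervals. No test was run with 1 sample per condition. Depth limits which ORFs reach 6 P-sites. The members and gene lists were chosen with earlier results of these data known. Named were the 10 ORFs with the highest smaller treated value, 5 highest absent from the deep list, 5 highest in it, the 5 longest and 5 shortest, and up to 4 per gene list. Other names were chosen after their values were seen. Lists by gene description could not be applied. The result of 1 gene list is not reported here.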

Additional observations from a re-analysis of the deposited data

How the results depend on the processing

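Of 33 values under other settings, 18 stayed within 1.5 times (counts) or within the 95% interval (shares and medians) of the reported value, and 15 did not. Of the 288 stop codons, 109 remained with at least 20 P-sites in both treated lists, and 16 when the deep list also had to lack them. Matching by ORF identifier gave 1314 ORFs, of which 75.5% had the same identifier in the deep list. The A-RNaseI pair alone gave 1213 stop codons and the E-RNaseI pair alone 1245. The median length was 630 nt for stop codons also absent from the deep list, 907.5 nt with the shortest ORF per stop codon and 1014 nt with the E-RNaseI pair alone. The median P-sites with A-RNaseI were 19, 31 and 22, and with E-RNaseI 35, 55 and 36.5, with limits of 10 and of 20 P-sites and with stop codons absent from the deep list, as a higher limit itself requires for the first pairs. By gene in place of stop codon the number was 216. The number of chosen stop codons thus depended on which lists were compared and on what counts as the same ORF. No paired test was run, and the results are counts, shares and medians from 1 standard sample per condition.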

Other observations

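ORFs outside annotated coding regions followed the same rule in 14 entries, 12 uORFs and 2 ncORFs, with the ORF of Myc in both numbers. All uORFs and ncORFs of the standard lists were not counted. No share can therefore be set beside the 4.02% of CCDS stop codons that met the rule. The uORF of Manf, a secreted factor of the endoplasmic reticulum, was 21 nt long and had 16 P-sites in the treated A-RNaseI list and 102 in the treated E-RNaseI list. That of polo, the mitotic kinase, was 18 nt long with 23 and 47 P-sites, and that of Myc, a growth-promoting transcription factor, was 21 nt long with 20 and 33 and was also listed as an ncORF. The deep list held none of these 3, nor the uORFs of Xxylt, elm, CG6659 and of the overlapping CG2082 and Sec8. It did hold the uORFs of E(Pc) (597 nt, with 21 and 46 P-sites in the presence of cycloheximide and 158 in the deep list) and of Fis1 (21 nt, with 25, 45 and 69). The uORFs of coro, RhoGAP92B and Moe and the other ncORF were in the deep list too. Of the chosen CCDS stop codons it held 94.4%.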
